A study of Mus musculus with 6 samples.

Results

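The 10 genes described here encode proteins that take up, carry and activate fatty acids: the binding proteins *Fabp3*, *Fabp4*, *Fabp5* and *Fabp7*, the surface and transport proteins *Cd36*, *Slc27a1* and *Slc27a4*, and the acyl-CoA synthetases *Acsl1*, *Acsl3* and *Acsl5*. They were found by symbol in the deposited table, where all 10 of 10 are listed among 19831 genes. They were chosen by name with the genotype difference in these data already known, so that their values are given as a description and no test was made on them. The study compared inguinal adipose tissue (iAT) from 3 wild-type and 3 Npffr1-KO samples by RNA sequencing. The Npffr1-KO samples lack *Npffr1*, which encodes neuropeptide FF receptor 1, and no other allele or agent is named for either genotype. All 6 samples were whole tissue of mice kept under SPF conditions and were taken at postnatal day 6. How the *Npffr1* allele was made, whether animals were littermates, and whether a sample held 1 animal or several were not given in the sources used here.

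Long-chain fatty acids reach fat tissue mainly as triglyceride in lipoproteins, which lipoprotein lipase cleaves at the capillary wall. CD36 and the fatty acid transport proteins of the Slc27 family help them into the cell, acyl-CoA synthetases trap them as acyl-CoA, and the small cytosolic FABP proteins carry them to storage, to oxidation or to nuclear receptors. FABP4 is the abundant form of fat cells, whereas FABP3, the heart form, is known from tissues that burn fatty acids, such as heart, red muscle and brown fat.

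*Fabp3* lies on chromosome 4 from 130308595 to 130315463 on the plus strand of the GRCm38 build. Its coding sequence of 399 bases has a near copy in *Fabp3-ps1*, a processed pseudogene on the minus strand of chromosome 10, from 86731987 to 86732388, which is not a row of the deposited table. The copies are identical at 396 of the 399 aligned bases, or 99.2%. Their first 90 coding bases are shown because they show how few positions tell reads of the gene from reads of the copy, and the capitals mark the 1 base that differs.
Fabp3: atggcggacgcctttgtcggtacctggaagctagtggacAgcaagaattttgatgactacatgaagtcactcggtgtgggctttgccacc
Fabp3-ps1: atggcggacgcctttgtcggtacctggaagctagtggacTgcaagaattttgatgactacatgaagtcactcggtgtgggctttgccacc
Of the 793 different sequences of 31 bases in annotated *Fabp3* transcripts, 37.3% were shared with some other gene, and 279 of these occur in *Fabp3-ps1*. *Npffr1* lies on chromosome 10 as well, from 61595492 to 61628565. The member *Fabp7* lies nearer to it on the same chromosome, from 57784881 to 57788450. Whether this place bears on the *Fabp7* value was not tested. Whether reads of the pseudogene entered the *Fabp3* value was not tested, and the value is uncertain to that extent. *Fabp5* shares 9.21% of its 31-base sequences with other genes, mostly with the processed pseudogene *Gm6166*. The shares were 4.22% for *Acsl3*, all of it with *Utp14b*, 3.02% for *Slc27a1*, and from 0 to 1.09% for the other 6 members. No member shared a sequence of this length with another member.

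The promoters of the members furthest from equality between the genotypes, *Fabp3* upward and *Slc27a1* downward, were read as the 250 bases before the annotated start (RefSeq, GRCm38.p6). The *Fabp3* window lies at chr4:130308488-130308737. In the GENCODE annotation *Fabp3* begins at 130308595, so that much of the window lies inside the gene and its letters are not shown. The window before the most upstream of 3 starts of *Slc27a1*, the member with the lowest ratio, lies at chr8:71568621-71568870, also on the plus strand. Capitals in it mark the E-box CANNTG, the CCAAT box CCAAT, the GC box GGGCGG and the nuclear receptor half-site AGGTCA, on either strand.
Slc27a1: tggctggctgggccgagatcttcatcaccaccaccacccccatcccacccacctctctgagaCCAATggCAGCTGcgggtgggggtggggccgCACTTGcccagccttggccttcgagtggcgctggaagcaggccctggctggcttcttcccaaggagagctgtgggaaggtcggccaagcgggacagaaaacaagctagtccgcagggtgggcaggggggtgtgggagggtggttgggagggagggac
The *Fabp3* window, including its part inside the gene, held 1 E-box and none of the other 3 motifs. The *Slc27a1* window shown held 2 E-boxes, 1 CCAAT box and no GC box. The windows before its other starts, at 71569347 and 71570344, held 1 and 3 GC boxes. Of 32851 mouse promoter windows of this length, 66.2% held an E-box, 33.8% a CCAAT box, 32.7% a GC box and 14.02% a half-site. PPAR and RXR proteins, which are known to act on genes of this kind, bind as a pair to direct repeats, and the strict repeat AGGTCANAGGTCA, which contains the half-site, was found in none of the 11 windows of the 8 members in the table and in 0.0335% of all windows. *Fabp4* and *Fabp5* were the members with no window there.

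Levels differed by orders of magnitude between members. The deposited values are normalized read counts, given once for each genotype and not once for each sample, so that they carry no spread, and they were divided by the listed gene length for comparisons between genes. *Fabp4* led with 241927 normalized counts per kb in wild-type, 18.5-fold above *Cd36*, and 6 of all listed genes had a higher undivided wild-type value. *Cd36*, a scavenger receptor that binds fatty acids at the surface of fat cells, capillary cells and macrophages, stood at 13099 per kb. *Acsl1*, the main acyl-CoA synthetase of fat cells, followed with 11361 per kb. *Fabp5*, a binding protein of fat cells, macrophages, skin and capillaries, stood at 5082 per kb in wild-type. *Slc27a1*, also called FATP1, a transport protein of fat and muscle, stood at 3679 per kb. These 5 genes made up the upper part of the order. *Acsl5*, a synthetase of mitochondria and endoplasmic reticulum, had 524.9 normalized counts per kb, *Slc27a4*, or FATP4, had 234.7, and *Acsl3*, a synthetase of lipid droplets and the endoplasmic reticulum, had 113.2. *Fabp7*, the brain form known from glia, and *Fabp3* closed the order at 41.6 and 39.6 per kb. In the deposited wild-type values the step from *Fabp7* to *Fabp3* was 1.05-fold and that from *Cd36* to *Acsl1* 1.15-fold. The deposited values are shrunken towards each other between genotypes, and from the reads per library described below *Fabp7* stood at 40.7 ± 7.63 and *Fabp3* at 25.4 ± 13.5 per kb in wild-type (SD, n = 3 each), a step of 1.61-fold with overlapping spreads. The *Fabp3* reads are 1 of 5 matching combinations. The condition that took them asks for at least the deposited ratio, and so for a low wild-type value. Nothing is therefore read from the wider step. For the other 8 members no spread over samples is listed. In Npffr1-KO the order differed in 3 places, because *Fabp3* stood 8th at 225.2 per kb, ahead of *Acsl3* and *Fabp7*.

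**Figure D1:**
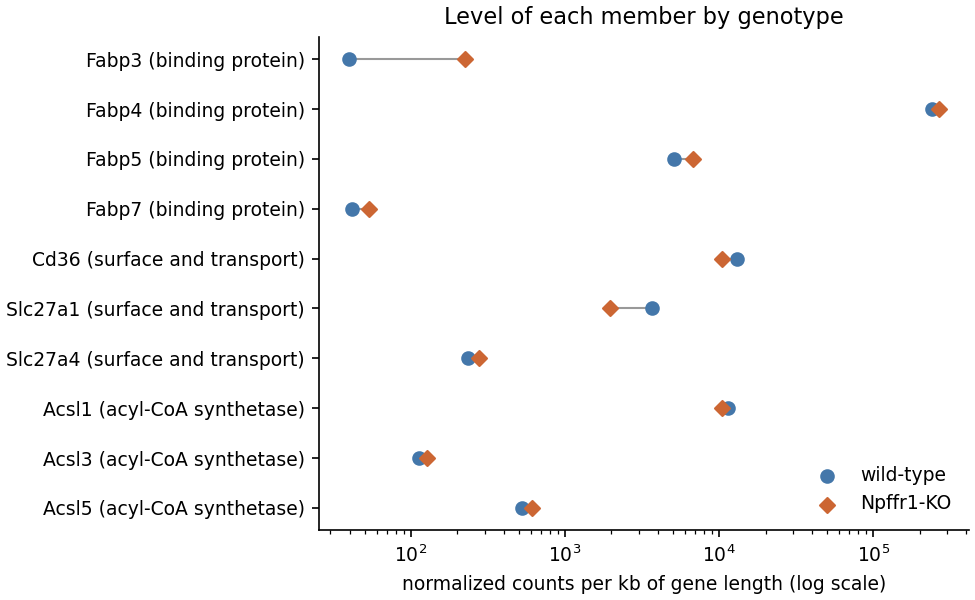
Normalized counts per kb of gene length (log axis) for each member in wild-type (circles) and Npffr1-KO (diamonds), 1 deposited value per genotype, with the role of each gene in brackets. *Fabp3* moves from 39.6 to 225.2 per kb and *Slc27a1* from 3679 to 1947, while the other pairs nearly coincide on this scale.

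Among the binding proteins, *Fabp3* stood apart. Its value went from 26.5 normalized counts (wild-type) to 151 (Npffr1-KO), a 5.69-fold ratio or 2.51 on the log2 scale, and 1 of the 15309 tested genes, those averaging 10 or more normalized counts over both genotypes, had a higher ratio. That gene was *Gm3317*, at 3.90 and 43.3 normalized counts. The next ratios below *Fabp3* were those of *Cidea*, a lipid droplet protein of brown and beige fat, at 4.69-fold, and of *Rgs7*, a regulator of G protein signalling, at 4.31-fold. *Fabp4* was at 156285 normalized counts (wild-type) and 173188 (Npffr1-KO), a log2 ratio of 0.15. *Fabp5* was at 4925 and 6520, with a log2 ratio of 0.40. *Fabp7* was at 31.7 and 40.6, with a log2 ratio of 0.36. All 4 binding proteins thus had a higher value in Npffr1-KO, although only *Fabp3* lay past 1.5-fold.

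All 4 are short genes, with listed lengths from 646 to 969 bases, and short genes as a class had higher values in Npffr1-KO. After subtraction of the median log2 ratio of genes of like length, which was 0.27 for *Fabp3*, *Fabp4* and *Fabp7* and 0.21 for *Fabp5*, the centred log2 ratio of *Fabp3* was 2.24. The centred value of *Fabp4* was -0.12 and so lay on the other side of 0. For *Fabp5* it was 0.20 and for *Fabp7* 0.09. The ratio of *Fabp4* was therefore below the median of genes as short as it, and the direction of *Fabp4* depended on this choice.

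The surface and transport genes had another pattern. *Slc27a1* was at 10282 normalized counts for wild-type against 5442 for Npffr1-KO, 1.89-fold lower in the latter, with a log2 ratio of -0.92 and 89 tested genes below it. This was the lowest ratio among the members, and it was -0.92 also after centring on gene length. *Cd36* was at 44956 and 36005 normalized counts, a log2 ratio of -0.32, or -0.29 when centred. *Slc27a4*, a relative of *Slc27a1* known for very long fatty acids, was at 941 and 1105, with a log2 ratio of 0.23. Summed over the 3 genes the normalized counts were 56180 against 42551, a ratio of 0.757, and *Cd36* and *Slc27a1* made up most of both sums.

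The acyl-CoA synthetases lay close to equality. *Acsl1* was at 44591 normalized counts for wild-type against 40699 for Npffr1-KO, a log2 ratio of -0.13. *Acsl3* was at 408 and 458, with a log2 ratio of 0.17, and *Acsl5* at 1662 and 1940, with a log2 ratio of 0.22. Centred on gene length, the 3 log2 ratios were -0.07, 0.22 and 0.25. As *Acsl1* made up 94.7% of their summed wild-type level per kb, the summed normalized counts of the 3 followed it, with a ratio of 0.924.

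Of the 10 members, 7 had a higher and 3 a lower value in Npffr1-KO. Past 1.5-fold lay 1 member upward, *Fabp3*, against 2.78% of all 15309 tested genes, and 1 downward, *Slc27a1*, against 3.12%. At a ratio of 5 to 4, a lower limit, 3 members lay past it upward, *Fabp3*, *Fabp5* and *Fabp7*, against 12% of all genes, and 1 downward against 11.6%. At 2-fold *Fabp3* alone was left upward, against 0.483% of all genes, and no member downward, against 0.314%. Since the members were chosen with this difference known, nothing is read from these counts. The median log2 ratio of the members was 0.20, or 0.14 when centred on gene length, and that of all tested genes was 0.01.

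**Figure D2:**
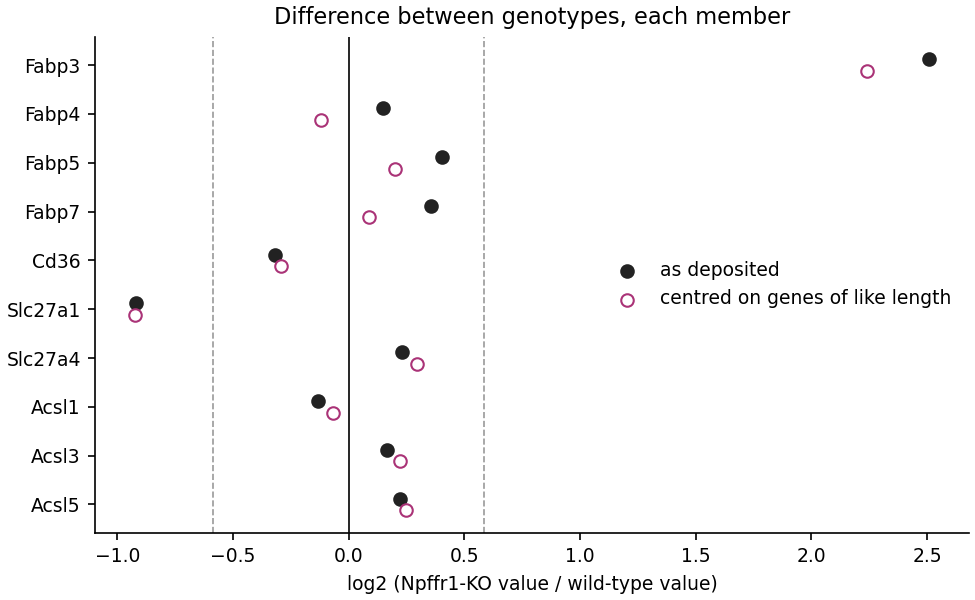
Log2 ratio of the Npffr1-KO value to the wild-type value for each member, as deposited (filled) and after subtraction of the median of genes of like length (open), with dashed lines at 1.5-fold in either direction. *Fabp3* at 2.51 and *Slc27a1* at -0.92 lie outside the lines on both scales, and *Fabp4* is at 0.15 as deposited and at -0.12 when centred.

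For genes with few reads, the whole reads of the 6 libraries could be worked out from the deposited values, which was possible for *Fabp3* and *Fabp7* alone among the members. The libraries found in this way are called A, B and C for wild-type and D, E and F for Npffr1-KO, and these letters do not stand for the sample numbers in the labels. *Npffr1* itself had 1, 0 and 5 reads in libraries A, B and C and 0 reads in each of D, E and F, where a count of 0 allows up to 3 reads. The processing notes name RSEM, which estimates counts, so that the reads given here are whole counts and not always reads seen. As reads without molecular identifiers are not independent molecules either, all intervals below cover counting error only.

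*Fabp3* had 12 reads in library A, 28 in B and 12 in C. In Npffr1-KO it had 228 reads in D, 54 in E and 189 in F. The highest wild-type library, B, had a 95% Poisson interval from 18.6 to 40.5 reads, and the lowest Npffr1-KO library, E, one from 40.6 to 70.5 reads. The genotypes did not overlap, but E lay far below the other two Npffr1-KO libraries and nearer to wild-type. Divided by the size factors, the means were 17.0 ± 9.04 normalized counts for wild-type against 160 ± 91.7 for Npffr1-KO (SD, n = 3 each). The ratio of these means was 9.44, beside a deposited ratio of 5.69, which is a shrunken one. The condition given below took only a combination with at least the deposited ratio, so that nothing is read from this order. Leaving out 1 library at a time gave ratios from 7.68, without D, to 13.6, without B. Among 2894 genes with recovered reads that averaged 10 or more normalized counts, 5 had a higher ratio, and 6.70% were higher in Npffr1-KO with no overlap. Genes with no reads in a genotype have no ratio and are not among the 5. These reads rest on a condition added after the data were seen, because 5 combinations of whole reads matched the deposited *Fabp3* values. The combination given is the only one of the 5 in which the genotypes differ in the deposited direction and by at least the deposited ratio. The lack of overlap, the ratios with 1 library left out and the rank of *Fabp3* all rest on this choice. Among genes with a single matching combination, an average of 10 or more and a deposited log2 ratio of over 0.1 in size, 2255 of 2255 met this condition.

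*Fabp7* had a single matching combination. It had 28, 29 and 38 reads in libraries A, B and C and 45, 45 and 32 reads in D, E and F. The genotypes overlapped, as F lay below C. The means were 31.05 ± 5.81 normalized counts for wild-type against 41.2 ± 5.57 for Npffr1-KO (SD, n = 3 each), a ratio of 1.33 or 0.41 on the log2 scale, which ranged from 0.32 to 0.57 when 1 library was left out. The mean difference of *Fabp7* thus did not separate the libraries.

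**Figure D3:**
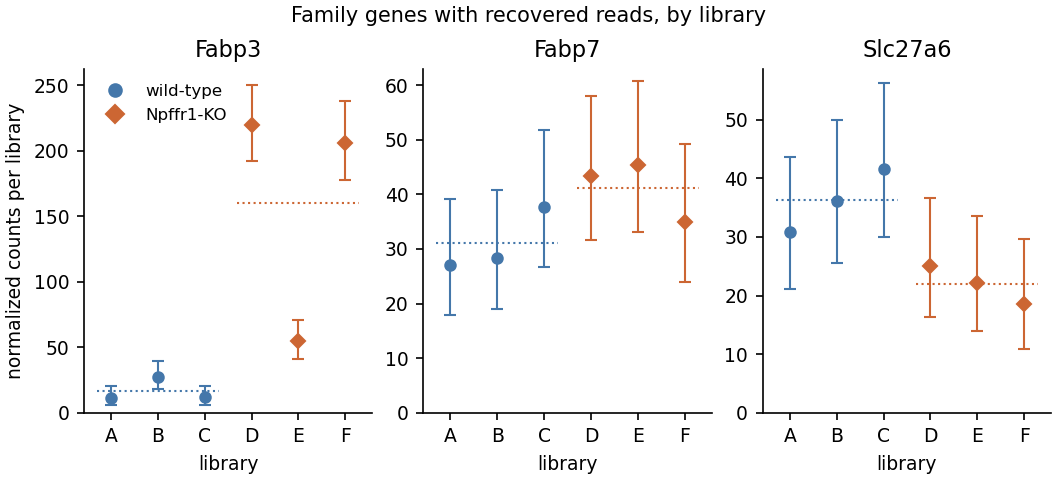
Normalized counts in each recovered library for *Fabp3*, *Fabp7* and the related *Slc27a6*, with 95% Poisson intervals as bars and the mean of each genotype as a dotted line. In the combination taken for *Fabp3*, its values in libraries D, E and F, from 54 to 228 reads, all lie above the 12 to 28 reads of A, B and C. The *Fabp7* values overlap, and those of *Slc27a6* are lower in D, E and F.

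The rest of the families gave 18 further genes, of which 7 averaged 10 or more normalized counts. Of these, 1 was higher and 6 were lower in Npffr1-KO, and 2 lay past 1.5-fold, both downward, as did 3.12% of all tested genes. *Pmp2*, the FABP of myelin, was at 284 and 154 normalized counts, a log2 ratio of -0.88. *Slc27a6*, a transport protein best known from the heart, had 32, 37 and 42 reads in libraries A, B and C and 26, 22 and 17 in D, E and F. The genotypes of *Slc27a6* did not overlap, as was the case for 10.9% of recovered genes in the downward direction, with means of 36.3 ± 5.39 and 21.9 ± 3.26 normalized counts (SD, n = 3 each). *Acsbg1*, a synthetase of very long fatty acids, was the 1 gene that was higher, with a log2 ratio of 0.48. The deposited log2 ratios of *Slc27a3*, *Acsl4* and *Rbp7*, in this order, were -0.21, -0.10 and -0.03.

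Around the members, the list of 33 other genes of the pathway held 21 higher and 12 lower values in Npffr1-KO, with a median log2 ratio of 0.26, while 7835 of all 15309 tested genes were higher. Past 1.5-fold lay 5 upward, against 2.78% of all tested genes, and 0 downward, against 3.12%. *Cpt1b*, the muscle and brown fat form of the enzyme that admits acyl groups to mitochondria, was at 243 and 686 normalized counts, a 2.82-fold ratio. *Ppara*, a nuclear receptor for fatty acids, was at 238 and 651, with a log2 ratio of 1.45. Both ratios were below that of *Fabp3*. *Ppargc1a*, a coactivator known for mitochondrial biogenesis, had a log2 ratio of 0.83, *Acadvl*, a dehydrogenase of beta-oxidation, one of 0.79, and *Acot13*, a mitochondrial thioesterase, one of 0.63. *Acot13* was no longer past 1.5-fold when centred on gene length, at 0.36. By role, 10 of 14 genes of acyl-CoA handling, 8 of 12 transcription factors and 3 of 7 genes of supply from lipoproteins and capillaries had a higher value.

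**Figure D4:**
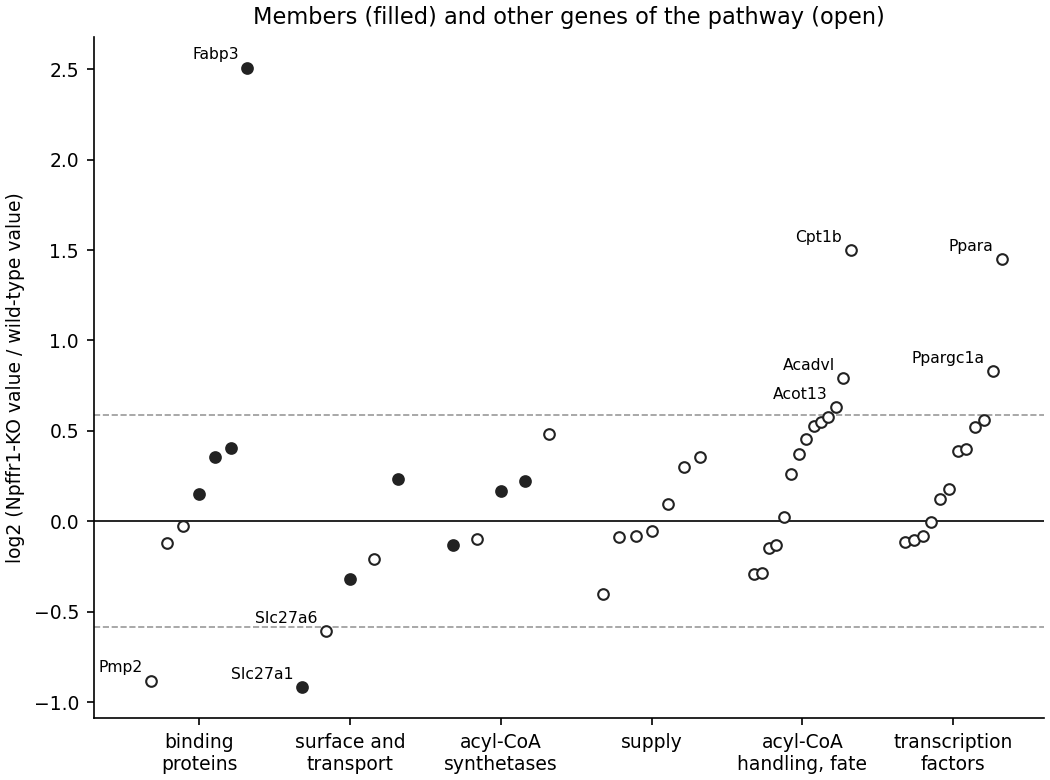
Log2 ratio of the Npffr1-KO value to the wild-type value for the members (filled) and the other genes of the families and the pathway (open) that averaged 10 or more normalized counts, by role and ordered by value within each role, with dashed lines at 1.5-fold. *Fabp3* at 2.51 is the highest point, *Cpt1b* and *Ppara* follow, the latter at 1.45, and *Slc27a1* at -0.92 and *Pmp2* at -0.88 are the lowest.

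The tissue held the transcripts of fat cells at high levels. White adipocyte markers, 8 of 8 above the minimum, summed to 236501 normalized counts against 231772 for Npffr1-KO, with a median log2 ratio of -0.02. In Npffr1-KO 4 of them were higher and 4 lower. Past 1.5-fold lay 1, upward, against 2.78% of all tested genes. It was *Lep*, named after its values were seen, at 4210 and 8703 normalized counts. In whole tissue, fewer cells of a type and less RNA per cell cannot be told apart. Markers of thermogenic adipocytes, 7 of 8 above the minimum, were all higher in Npffr1-KO. Past 1.5-fold upward lay 6 of them, against 2.78% of all tested genes, and the list was chosen with earlier results known. The markers had a median log2 ratio of 1.66 and a sum of 1649 against 5465 normalized counts. Among them *Cox8b* was at 460 and 1567 normalized counts, *Cidea* at 304 and 1427 and *Ucp1*, the uncoupling protein, at 438 and 1287. *Elovl3*, another of these markers, had 3 reads in library D and 0 in the other 5. *Dio2*, the deiodinase of brown fat, was named after its values were seen because its reads were recovered, and had 13, 11 and 51 reads in A, B and C and 54, 26 and 19 in D, E and F. *Dio2* therefore did not follow the order of *Fabp3* over the libraries, being as high in C as in D.

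Genes of skeletal muscle, a tissue that also expresses *Fabp3* and *Slc27a1*, were high in library D. Of the muscle markers, 7 of 8 passed the minimum and all 7 were higher in Npffr1-KO, with a median log2 ratio of 0.60 and a sum of 472 against 863 normalized counts. *Ckm*, the muscle creatine kinase, *Myh1*, a fast myosin, and *Actn3*, an actinin of fast fibres, were again named because their reads were recovered. *Ckm* had 2, 3 and 2 reads in A, B and C and 215, 1 and 6 in D, E and F. *Myh1* had 2, 6 and 4 reads in A, B and C and 289, 0 and 0 in D, E and F. *Actn3* had 15, 6 and 22 reads in A, B and C and 52, 11 and 17 in D, E and F. The 3 genes were highest in library D. In wild-type the deposited values of *Ckm* and *Myh1* were 27.5 and 43.8 normalized counts, beside means of 2.28 and 3.93 from the reads. The sums above are made of such shrunken values and do not show that *Ckm* and *Myh1* were high in D alone. *Fabp3* had 228, 54 and 189 reads in D, E and F in the combination taken for it. The more abundant muscle markers could not be resolved by library, and the part of muscle in the *Fabp3* value was not tested. Whether muscle added to the values of the thermogenic markers was not tested either.

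**Figure D5:**
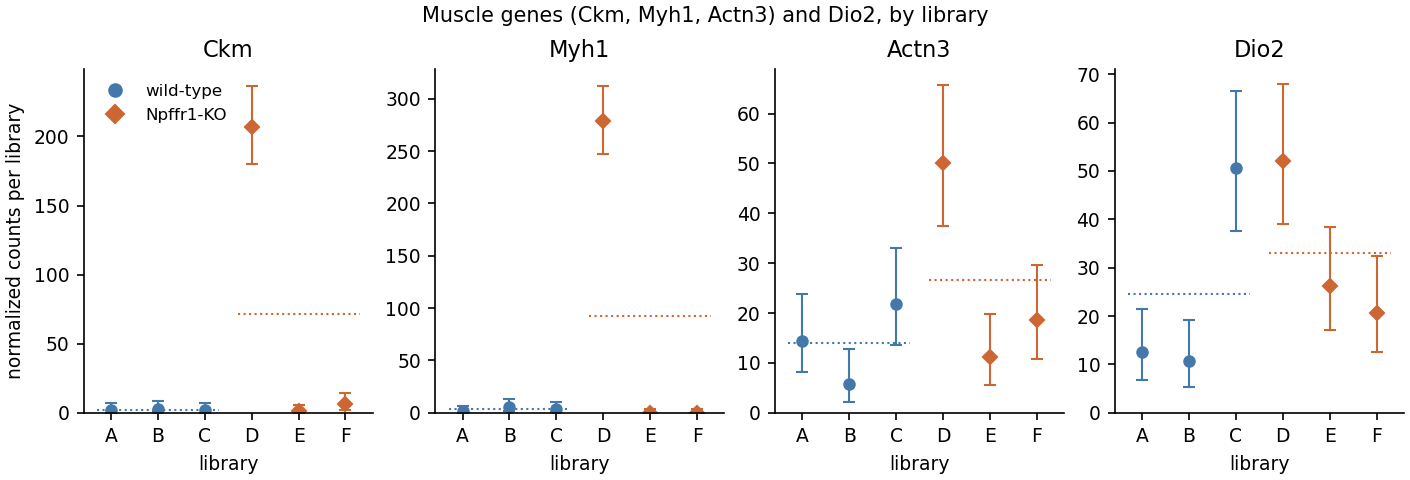
Normalized counts in each recovered library for 3 skeletal muscle genes and for *Dio2*, with 95% Poisson intervals as bars and the mean of each genotype as a dotted line. *Ckm* and *Myh1* are high in library D alone, with 215 and 289 reads, and *Dio2* is similar in C and D, with 51 and 54 reads.

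Other cell types that express members differed between the genotypes as well, and their part in the values above was not tested. Endothelial markers, whose cells also express *Cd36* and *Fabp5*, were lower for 7 of 8 genes, with a median log2 ratio of -0.32 and a sum of 74091 against 59344 normalized counts. *Cdh5*, *Pecam1* and *Cldn5*, the 3 most abundant, had log2 ratios of -0.37, -0.28 and -0.44, beside -0.32 for *Cd36*. Macrophage markers were higher for 6 of 8 genes, with a median of 0.24, or 0.06 when centred on gene length, and a sum of 24455 against 28660 normalized counts. Schwann cell markers were lower for 7 of 8 genes, with a median of -0.57 and a sum of 37158 against 26985 normalized counts. *Pmp2* lay on the side of the Schwann cell list and *Fabp7*, which glia express, on the other. Markers of adipocyte progenitors, with a median of -0.04, were higher for 4 of 8 genes. Their sum was 26568 against 19927 normalized counts, and *Dlk1*, the most abundant of them, had a log2 ratio of -0.87. All 8 lymphocyte markers were higher, with a median of 0.48. All 8 erythroid markers were higher as well, with a median of 0.23, or 0.02 when centred. Keratinocyte markers, of which 2 of 8 passed the minimum, had a median of 0.01, and mammary epithelium markers, of which 4 of 8 passed, one of -0.06. *Krt5* and *Krt14*, the defining keratinocyte genes, had few reads and were highest in library D. *Krt5* had 0, 0 and 11 reads in A, B and C and 21, 0 and 0 in D, E and F. *Krt14* had 0, 0 and 6 in A, B and C and 11, 1 and 1 in D, E and F.

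4 members overlap another gene in the annotation, 3 of them a gene that the deposited table lists, and whether the counting used the strand was not given in the sources used here. *Fabp3* overlaps *Zcchc17*, which lies on the minus strand and was at 759 and 939 normalized counts, a log2 ratio of 0.31 against 2.51 for *Fabp3*. *Acsl3* overlaps *Utp14b* on its own strand, which was at 45.8 and 38.5 normalized counts. *Acsl5* overlaps *Zdhhc6* on the other strand, which was at 1053 and 1141 normalized counts with a log2 ratio of 0.12.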

How the data were processed

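RNA of the 6 iAT samples was extracted with TRIzol, and groups were taken from the genotype labels. The submitters' processing notes name Bowtie2, RSEM and DESeq2, while their versions, the build of the genome and the gene models were not given in the sources used here. The deposited table holds a signal for each gene and genotype, made by the authors from counts of reads scaled to library size, together with the gene length in bases. Its columns of fold changes, p-values and calls, and a second table of 90 genes, hold the authors' own comparison and were not used. The mean of the pair of values is the mean normalized count over 6 libraries and their ratio is a shrunken one, so that no spread and no test could be had from it.

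Log2 ratios were taken over 15309 genes averaging 10 or more, counted as past the limit at 1.5-fold, and centred on the median of 20 classes of gene length. The members and all gene lists were chosen with earlier results of these data known. The rule for named genes took all members, relatives with a mean of at least 10, pathway genes past 1.5-fold, the nearest genes to *Fabp3* in ratio, and up to 3 genes for each marker list.

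The sums of the 585 genes that hold 1 read take 6 levels, the worth of 1 read in each library, from 0.964 to 1.09 normalized counts (size factors from 0.916 to 1.04), and the higher value of the pair gives the genotype. All combinations of whole reads matching a gene's mean to the 15 digits given were searched for. Of 2930 genes averaging 10 or more within reach of the search, 2855 had 1 combination, 39 had 1 only with the condition given for *Fabp3*, and 36 were not resolved. That condition, a tolerance of 1.5 times the printed digits, and a refit of the worth of 1 read over 499 genes were added after seeing the data. All reads per library are therefore inferred. Over all listed genes the values sum to 23137343 (wild-type) and 23640005 (Npffr1-KO), and the total of each library is not listed.

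Places, transcripts and sequences of 31 bases came from the GENCODE annotation of GRCm38, and promoters from RefSeq. The build behind the counts may differ. *Cavin1* was matched under an older symbol. The values of 1 relative are not reported here. Python 3.11.15, numpy 2.4.6, pandas 2.3.3, scipy 1.17.1, numba 0.67.0 and matplotlib 3.10.9 were used.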

Additional observations from a re-analysis of the deposited data

How the results depend on the processing

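Centring on genes of like length changed the direction of *Fabp4*, to -0.12, and of no other member. Pseudocounts of 1 and 10 cannot change a direction. Centring on the median gene shifted each log2 ratio by 0.008 only, too little to change the direction of any member. Of 42 alternative values of single members 1 had another sign, but most of the 42 could not change sign. Of 32 medians of marker lists 1 had another sign, that of the keratinocyte markers at -0.09 when centred on gene length. The median of the members ranged from 0.14 to 0.20. Members past the limit numbered 3 upward at a ratio of 5 to 4 and 0 downward at 2-fold, and otherwise 1 each way. Of the 51 other genes of the families and the pathway, 5 lay past 1.5-fold upward and 2 downward (2.78% and 3.12% of all tested genes). They gave 16 upward and 3 downward at 5 to 4 (12% and 11.6% of all tested genes). At 2-fold they gave 2 upward and 0 downward (0.483% and 0.314% of all tested genes). At 1.5-fold they gave 4 upward when centred on gene length and 3 downward with no minimum. A pseudocount of 10 or a minimum mean of 50 gave 1 downward. In the order of levels, 2 members changed place without division by length and 3 with the Npffr1-KO value. From reads per library the log2 ratio of *Fabp3* was 3.24, with a range from 2.94 to 3.77 when 1 library was left out, and that of *Fabp7* was 0.41, with a range from 0.32 to 0.57. The other 4 matching combinations for *Fabp3*, an alternative added after seeing the data, gave 1.06, -0.089, -1.01 and -2.62. The condition leaves out any combination short of the deposited 2.51, so that nothing is read from this gap. No paired analysis was possible because the table holds 1 value for each genotype and the recovered libraries are not tied to the replicate numbers in the labels.

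The reads of the other 8 members could not be recovered, so that their spread between libraries is not known. For *Ckm*, whose reads sit in 1 library, the deposited ratio was 1.68 and that of the reads 31.3, and a deposited ratio alone does not show such a case. Genotype and any litter, dissection or sequencing batch cannot be told apart.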

Other observations

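The 5 FABP genes that lie side by side on chromosome 3 did not share a direction. *Fabp5*, *Pmp2*, *Fabp9*, *Fabp4* and *Fabp12* lie in this order from 10012548 to 10301183 (GRCm38), and their deposited log2 ratios of Npffr1-KO to wild-type were 0.40, -0.88, -0.21, 0.15 and -0.43. *Fabp9* and *Fabp12*, named here for their place, had means under 10 normalized counts. *Fabp9* had 10, 11 and 9 reads in libraries A, B and C and 9, 6 and 8 in D, E and F, and *Fabp12* had 5, 13 and 13 and 2, 11 and 4.

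Among the relatives that bind retinoids, *Crabp2*, which carries retinoic acid to its nuclear receptor, also lay under the minimum and was named after its values were seen. It had 4, 18 and 16 reads in A, B and C and 3, 3 and 6 in D, E and F, so that the genotypes overlapped through library A. Its means were 12.5 ± 7.49 and 4.16 ± 2.07 normalized counts (SD, n = 3 each). *Fabp1* and *Fabp2*, the forms of liver and gut, had at most 4 and 2 reads in any library.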
